A study of Mus musculus with 6 samples.

Results

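The interferon regulatory factor genes described here are Irf1, Irf2, Irf3, Irf4, Irf5, Irf7, Irf8 and Irf9, 8 of the 46603 genes in the count table, and they were taken by gene symbol. All 8 were detected in every library and passed the filter on low counts. RNA-Seq was done on CD11B+ cells, a magnetic-bead fraction of dissociated kidney that is rich in monocytes and macrophages, from male mice of 10 to 12 weeks. The kidneys were taken on day 3 after ischemia-reperfusion injury (IRI-AKI), produced by closing the vessels of both kidneys for 28 minutes. The 3 PTEC DN RAR mice had the genotype PEPCK CRE+; Rosa26-LSL-RARaT403X, so that Cre driven by the PEPCK promoter switched on a truncated, dominant-negative retinoic acid receptor alpha in proximal tubular epithelial cells (PTECs). The 3 Cre- controls had the genotype PEPCK CRE-; Rosa26-LSL-RARaT403X and carried the same silent allele. The sequenced cells are therefore not the cells in which the transgene was meant to act, and the comparison asks whether blocking RAR signaling in the tubule went along with a different IRF program in kidney myeloid cells. No uninjured kidney is among the 6 libraries, so all values are from injured kidneys.

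Interferon regulatory factors are transcription factors with a conserved DNA-binding domain that reads GAAA repeats. IRF3, IRF5 and IRF7 wait in the cytoplasm until kinases downstream of Toll-like receptors, RIG-I-like receptors or STING phosphorylate them, and IRF3 and IRF7 then switch on type I interferon genes. Interferon acts through JAK kinases, and IRF9 joins STAT proteins, STAT2 among them, in the complex ISGF3, which binds the interferon-stimulated response element (ISRE). Interferon-gamma acts through the gamma-activated site (GAS). IRF1 activates and IRF2 largely represses at shared sites, while IRF8 and IRF4 work with ETS-family and AP-1 partners in the development and polarization of monocytes, macrophages, dendritic cells and B cells.

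The promoters are shown because the letters read by these complexes stand in front of some of the IRF genes themselves. RefSeq start sites on GRCm38.p6 gave 11 entries for the 8 genes, and the 250 bases before each start were searched on both strands for the core of the ISRE (GAAA, NN, GAAA), for GAS (TTC, NNN, GAA) and for an ETS-IRF composite (GGAA, NN, GAAA), where N is any base. The ISRE core occurred in 2.977%, the GAS letters in 7.02% and the composite letters in 2.301% of 32851 promoters searched over the same length. Matches were found for Irf1, Irf2 and Irf8. In the lines that follow, capitals mark every match, and the bases are those of the plus strand of GRCm38.p6, which is the coding strand of these genes. The ISRE core and composite matches are on that strand. The GAS letters read the same on both strands, so a GAS match has no strand of its own.
Irf1: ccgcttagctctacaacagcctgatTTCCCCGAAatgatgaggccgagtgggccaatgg
Irf2: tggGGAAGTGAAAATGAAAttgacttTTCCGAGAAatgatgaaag
Irf8: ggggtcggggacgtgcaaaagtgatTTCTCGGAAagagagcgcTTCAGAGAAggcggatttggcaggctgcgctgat

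The Irf1 stretch lies at chr11:53769899-53769957, with 1 GAS match. The Irf2 stretch lies at chr8:46739495-46739539, where a composite and an ISRE core overlap in the first run of capitals and a GAS match makes up the second. It also overlaps an annotated exon. The Irf8 stretch lies at chr8:120736162-120736238, with 2 GAS matches. No match was found in these windows for Irf3, Irf4, Irf5, Irf7 or Irf9, which says only that these letters do not occur there. No binding was measured in these data.

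Each library held between 29318041 and 46517005 reads assigned to genes, and levels are given as read counts scaled to library size by TMM (CPM). Markers of several cell types differed between the genotypes, beside 17.1% of all genes called lower and 23.6% called higher. All 10 proximal tubule markers were called higher in PTEC DN RAR libraries, where their summed level was 1675 to 2597 CPM against 518 to 727 CPM in the controls, and all 6 endothelial markers were also called higher, at 178 to 217 CPM against 61.9 to 89.8 CPM. All 3 thick ascending limb and all 3 distal convoluted tubule markers were called higher too, with median log2 fold changes of 2.14 and 2.46 against 1.77 for the proximal tubule. None of 3 collecting duct markers passed, though 2 were called higher without Cre- control replicate 1 or with the replicate number as a block. Some other settings, DESeq2 among them, gave 1. Of 8 resident macrophage markers 1 was lower and 1 higher, with overlapping sums. For B cells 2 of 5 tested markers were called higher, with 37.1 to 52.2 CPM in all against 24.7 to 32.6 CPM. Most of that sum was Cd79b, at 37.5 ± 6.04 against 26.6 ± 3.32 CPM (SD, n = 3 each). The count was 1 without Cre- control replicate 3, PTEC DN RAR replicate 1 or PTEC DN RAR replicate 2, and 6 without PTEC DN RAR replicate 3. For T cells it was 2 of 4, with 85.8 to 109 CPM against 43.0 to 71.5 CPM. Nearly all of that was Cd4, at 94.6 ± 12.4 against 55.2 ± 13.9 CPM (SD, n = 3 each), while Cd3e and Cd3d did not pass the filter. Of 4 plasma cell markers 2 were called lower and 1 higher. Plasmacytoid dendritic cells had 2 of 6 tested markers called higher and 0 lower. For type 2 dendritic cells 1 of 6 markers was called lower, and for NK cells 0 of 4 tested markers passed. Mitochondrial genes took 10.4% to 12.1% of the counts in PTEC DN RAR and 5.04% to 8.77% in the controls. Of 6 Ly6C-high monocyte markers 5 were called lower, with 1072 to 1192 CPM against 2154 to 2425 CPM, and 5 of 9 neutrophil markers were called lower, with 164 to 253 CPM against 313 to 663 CPM. Itgam, which encodes CD11B, fell from 1897 ± 139 to 1217 ± 207 CPM (SD, n = 3 each; log2 fold change -0.64, adjusted p = 0.00818, edgeR). An overlapping gene model shares 68.67% of the exon bases of Itgam but has no line in the count table. Rara was at 42.0 ± 5.75 CPM in controls and 33.3 ± 3.72 CPM in PTEC DN RAR (SD, n = 3 each; adjusted p = 0.0628, edgeR), and whether transgene reads are counted under it was not tested. In sorted bulk RNA, fewer cells of a type and less RNA per cell cannot be told apart, and the part of these shifts in the IRF values was not tested.

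Of the 8 IRF genes, Irf9 and Irf2 fell in PTEC DN RAR libraries, none rose, and 6 did not pass the test. Thus 25% were called lower, against 17.1% of the 15440 genes tested, and 0 were called higher, against 23.6% of all genes, with 40.6% of all genes called in either direction. The log2 fold change was negative for 7 of the 8 under TMM, with a median of -0.21 against 0.04 for all genes tested, while with scaling to pan-leukocyte genes it was positive for Irf1, Irf3, Irf4 and Irf8. All 3 PTEC DN RAR libraries lay below all 3 controls for 3 genes, Irf9, Irf2 and Irf5, which is 37.5% of the members against 24.2% of all genes. No member had the reverse, which 29.2% of all genes showed, and the groups did not overlap in either direction for 53.4% of all genes. The log2 fold changes ran from -0.42 for Irf7 to 0.10 for Irf3. Among the 22 pan-leukocyte genes tested, 8 were called lower and 0 higher, with a median log2 fold change of -0.21. For 11 of the 22, every PTEC DN RAR library lay below every control. Whether the IRF genes differ from other leukocyte genes was not tested.

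**Figure D1:**
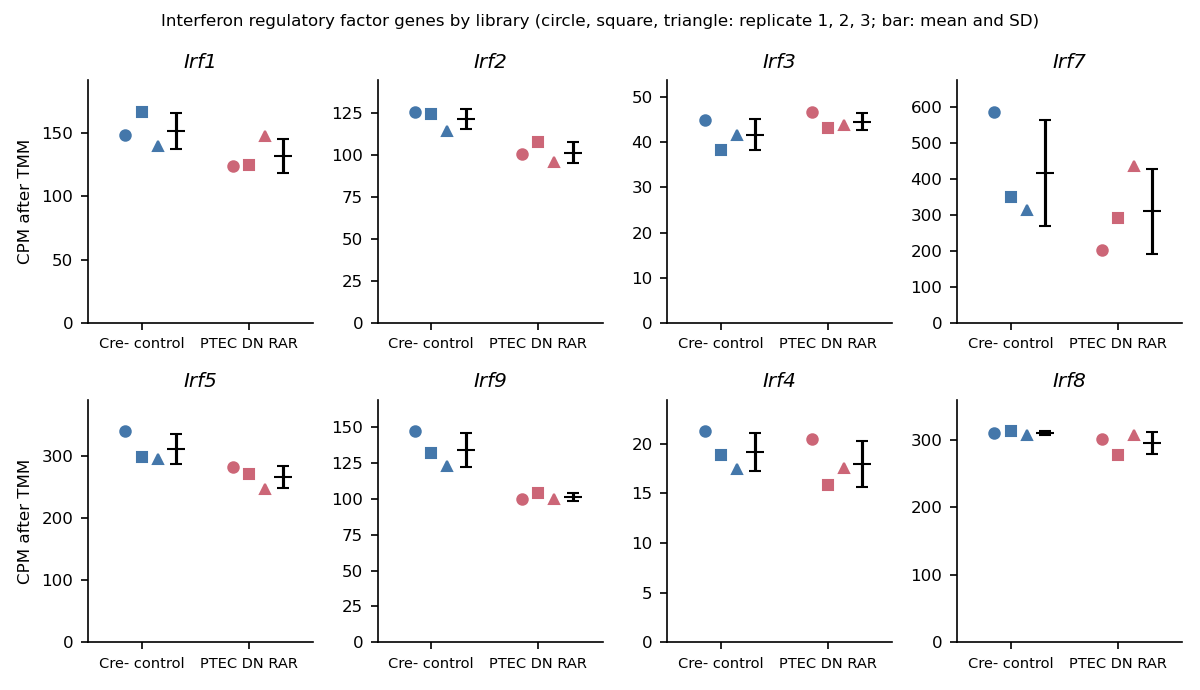
Each panel plots one IRF gene, with the level in CPM after TMM on the y axis from 0 and the genotype on the x axis. Points are libraries (circle, square and triangle for replicates 1, 2 and 3) and bars give the mean and SD of 3. In the panels of Irf9, Irf2 and Irf5 every PTEC DN RAR point is below every control point, while Irf7 spreads from 203 to 586 CPM.

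Irf9 (ENSMUSG00000002325, chr14:55603571-55610030, GRCm38) encodes the DNA-binding subunit of ISGF3. It was measured at 147, 132 and 123 CPM in the controls and at 99.4, 104 and 99.6 CPM in PTEC DN RAR. The groups did not overlap, and the PTEC DN RAR libraries lay close together. The log2 fold change was -0.41 ± 0.09 (SE; 95% interval -0.61 to -0.20; adjusted p = 0.00790, edgeR), from a mean of 134 ± 12.1 to 101 ± 2.75 CPM (SD, n = 3 each). The call of Irf9 held when any 1 library was left out, with log2 fold changes from -0.51 to -0.34. Under pan-leukocyte scaling the value was -0.18 (adjusted p = 0.221), which ended the call. Irf9 shares 123 exon bases with Rnf31, which lies on the same strand.

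Irf2 (ENSMUSG00000031627, chr8:46739732-46847458) encodes the factor that competes with IRF1 for its sites. Its level was 126, 124 and 115 CPM in the controls and 101, 108 and 95.8 CPM in PTEC DN RAR. The groups did not overlap, with the lowest control at 115 and the highest PTEC DN RAR library at 108 CPM. The log2 fold change was -0.26 ± 0.08 (SE; adjusted p = 0.0360, edgeR), close to the threshold of 0.05. The call was lost without Cre- control replicate 1 (adjusted p = 0.0644), Cre- control replicate 2 (0.0578), PTEC DN RAR replicate 1 (0.0919) or PTEC DN RAR replicate 3 (0.0634), with log2 fold changes from -0.29 to -0.24. It was also lost under pan-leukocyte scaling, where the log2 fold change was -0.04 (adjusted p = 0.802), and with a minimum of 10 counts in every library (adjusted p = 0.0504).

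Irf1 (ENSMUSG00000018899, chr11:53770014-53778374) encodes the activator induced by interferon-gamma. It was at 149, 167 and 140 CPM in the controls and at 124, 125 and 147 CPM in PTEC DN RAR. The third PTEC DN RAR library lay inside the control range and the other two lay below it. The log2 fold change of -0.20 ± 0.11 (SE; adjusted p = 0.159, edgeR) did not pass, whereas without PTEC DN RAR replicate 3 it was -0.33 (adjusted p = 0.0441). Under pan-leukocyte scaling its sign turned, to 0.04 (adjusted p = 0.855). The ratio of Irf1 to Irf2, the activator over the repressor, was 0.32 ± 0.10 in controls and 0.38 ± 0.22 in PTEC DN RAR on the log2 scale of CPM (SD, n = 3 each), and the groups overlapped.

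Irf3 (ENSMUSG00000003184, chr7:44997648-45002848) encodes the constitutive factor activated by TBK1. The controls were at 45.0, 38.2 and 41.7 CPM and PTEC DN RAR was at 46.8, 43.1 and 43.9 CPM. The groups overlapped, and Irf3 alone of the 8 had a positive log2 fold change under TMM, 0.10 ± 0.09 (SE; adjusted p = 0.419, edgeR), which turned to -0.0025 without Cre- control replicate 2. Scaling to pan-leukocyte genes gave 0.32 (adjusted p = 0.0439), past the threshold.

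Irf7 (ENSMUSG00000025498, chr7:141262706-141266481, minus strand) encodes the interferon-induced factor that amplifies type I interferon production. It was the most variable of the 8, at 586, 348 and 314 CPM in the controls and 203, 291 and 436 CPM in PTEC DN RAR. The highest control and the lowest PTEC DN RAR library differed by 2.88 times, yet the third PTEC DN RAR library exceeded 2 of the 3 controls. The coefficient of variation was 35.5% in controls and 37.9% in PTEC DN RAR, against 1.03% to 12.9% for the other members within a genotype. Its log2 fold change of -0.42 ± 0.30 (SE; 95% interval -1.11 to 0.26; adjusted p = 0.286, edgeR) was larger in size than that of Irf9 but did not pass, and it ranged from -0.79 without PTEC DN RAR replicate 3 to -0.10 without Cre- control replicate 1. Under pan-leukocyte scaling it was -0.17 (adjusted p = 0.707). On the log2 scale of CPM the ratio of Irf7 to Irf3 was 3.27 ± 0.40 in controls and 2.73 ± 0.60 in PTEC DN RAR (SD, n = 3 each), with overlap.

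Irf5 (ENSMUSG00000029771, chr6:29526625-29541871) encodes the factor that carries Toll-like receptor signals to inflammatory cytokine genes. It was at 340, 299 and 295 CPM in the controls and at 282, 270 and 246 CPM in PTEC DN RAR. The groups did not overlap, but the log2 fold change of -0.22 ± 0.10 (SE; adjusted p = 0.0918, edgeR) missed the threshold. DESeq2 gave -0.26 (adjusted p = 0.0264) and edgeR with RLE size factors also gave -0.26 (adjusted p = 0.0438), both past it, and pan-leukocyte scaling gave -0.002. Irf5 shares 411 exon bases, 14.15% of its total, with Tnpo3 on the opposite strand, and reads there may have been set aside as ambiguous or counted to either gene, depending on the strand setting. That setting is not given in the sources used here.

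Irf8 (ENSMUSG00000041515, chr8:120736358-120756694), which encodes the lineage factor of monocytes and type 1 dendritic cells, varied least of the 8 over the 6 libraries, by 1.13 times from lowest to highest, although Irf9 and Irf3 varied less within PTEC DN RAR. It was at 310, 312 and 306 CPM in the controls and 301, 277 and 307 CPM in PTEC DN RAR. The groups overlapped and the log2 fold change was -0.07 ± 0.08 (SE; 95% interval -0.26 to 0.12; adjusted p = 0.529, edgeR), with 0.16 under pan-leukocyte scaling (adjusted p = 0.258). Of 6 markers of type 1 dendritic cells, which need IRF8, Xcr1, Clec9a and Cadm1 were called higher (log2 fold changes 2.46, 1.31 and 1.01, named after their values were seen), beside 23.6% of all genes called higher. The other 3 did not pass, with log2 fold changes down to -0.25, and 1 marker was called lower without Cre- control replicate 3. The summed level of the 6 was 729 to 850 CPM in PTEC DN RAR and 609 to 756 CPM in the controls, with overlap.

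Irf4 (ENSMUSG00000021356, chr13:30749226-30766976) encodes the factor linked to alternative macrophage activation and to B and plasma cells, and it had the lowest level. It was at 21.3, 18.8 and 17.5 CPM in the controls and 20.5, 15.9 and 17.6 CPM in PTEC DN RAR. The groups overlapped, with a log2 fold change of -0.09 ± 0.13 (SE; adjusted p = 0.595, edgeR) under TMM and 0.13 under pan-leukocyte scaling. The log2 ratio of Irf8 to Irf4 in CPM was 4.02 ± 0.14 in controls and 4.04 ± 0.14 in PTEC DN RAR (SD, n = 3 each).

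**Figure D2:**
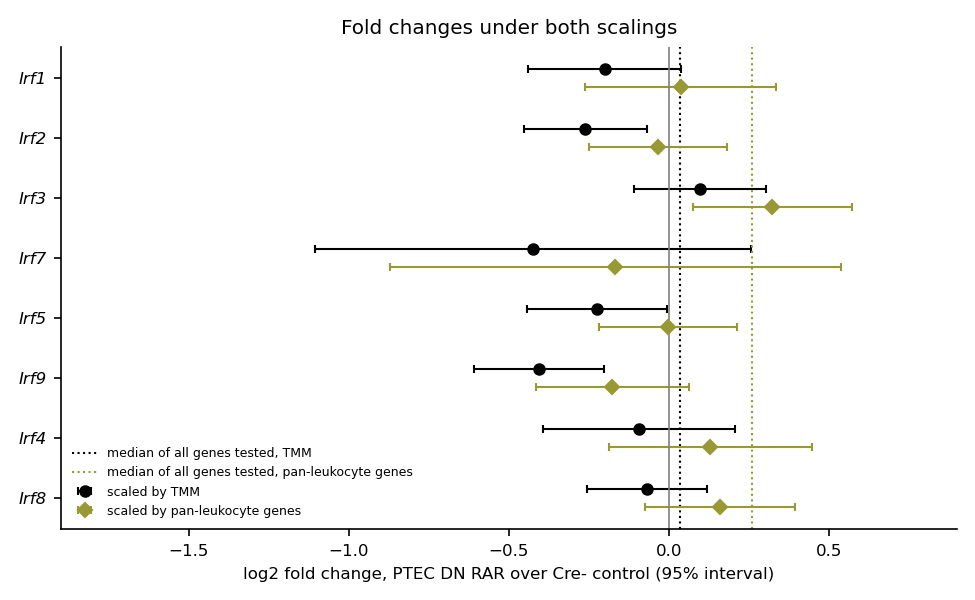
The x axis gives the log2 fold change of each IRF gene (y axis) in PTEC DN RAR over Cre- control, with 95% intervals from edgeR, under TMM (circles) and under scaling to 22 pan-leukocyte genes (diamonds), and dotted lines mark the median of all genes tested under each. Pan-leukocyte scaling moves all 8 genes to the right along with the median, which goes from 0.04 to 0.26.

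The 23 pan-leukocyte genes are general leukocyte transcripts, and 22 of them passed the filter, 8 called lower and 0 higher, with a median log2 fold change of -0.21. Scaling to them sets their level equal between the libraries and shifts the median of all genes by 0.23 on the log2 scale. Of all genes called, 87.7% were then higher, against 58% under TMM. A change of scaling moves all genes by nearly the same amount, so that the distances between the 8 genes carry over from one to the other, while their position against 0 depends on the reference.

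Levels of different genes were compared per kilobase of merged exons. In controls Irf7 (110 ± 39.2 CPM per kb) and Irf5 (107 ± 8.54) overlapped at the top, followed by Irf8 (43.9 ± 0.45), Irf1 (38.2 ± 3.52), Irf9 (24.9 ± 2.25), Irf2 (16.5 ± 0.83), Irf3 (12.1 ± 0.99) and Irf4 (3.91 ± 0.39; SD, n = 3 each). In that order each gene from Irf5 down had all its control libraries above those of the next. In PTEC DN RAR, Irf5 (91.6 ± 6.27 CPM per kb) came before Irf7 (82.1 ± 31.1), again with overlap, and Irf2 (13.7 ± 0.83) overlapped Irf3 (12.95 ± 0.56). The merged exons of Irf7 form 1 block of 3.776 kb because annotated transcripts retain its introns. With the longest coding transcript as the length, which was chosen after the data were seen, Irf2 moved above Irf9 in both genotypes, with overlap between them in controls, and Irf7 was first in both, still overlapping Irf5.

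**Figure D3:**
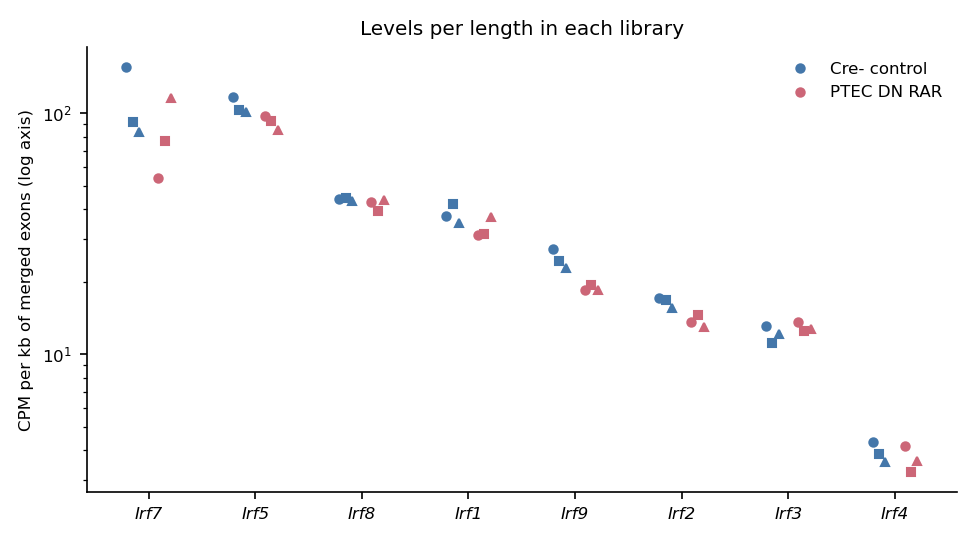
The y axis, on a log scale, gives CPM per kb of merged exons and the x axis the 8 IRF genes in the order of the control means, with 1 point for each library (circle, square and triangle for replicates 1, 2 and 3). Irf7 and Irf5 stand at the top and Irf4, near 4 CPM per kb, at the bottom in both genotypes.

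Upstream of the IRF proteins, 9 of 19 sensors, adaptors and kinases fell and 0 rose (17.1% and 23.6% of all genes), with a median log2 fold change of -0.31 against 0.04 for all genes. Ikbke, which encodes the kinase IKK-epsilon that phosphorylates IRF3 and IRF7, was at 58.8, 56.5 and 69.0 CPM in controls and 31.3, 29.7 and 27.6 CPM in PTEC DN RAR. Its libraries did not overlap, and the log2 fold change was -1.06 ± 0.10 (SE; adjusted p = 0.000304, edgeR). Tlr4, the lipopolysaccharide receptor, fell by 1.03 and Ddx58, which encodes the RNA sensor RIG-I, fell by 0.88 on the log2 scale (adjusted p = 0.000695 and 0.00866, edgeR). Without any 1 library 8 or 9 of the 19 were called lower, and under pan-leukocyte scaling 5 were lower and 2 higher.

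The interferon genes themselves were near the limit of detection. Of 10 ligand genes, 7 had no read in any library and none passed the filter, and the largest total over the 6 libraries was 39 reads, for Ifnb1, the gene of interferon-beta. A count of 0 in a library allows up to 0.0645 to 0.102 CPM, from 3 reads, and covers counting error only. Reads that align to several places were left out of the counts, which can lower the values of the closely related Ifna genes as well. No ligand gene was compared between the genotypes in the main fit. With no filter 3 of them were tested, and 0 were called lower or higher.

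Among 8 interferon receptors, JAK kinases and STAT partners, 3 fell and 0 rose (17.1% and 23.6% of all genes), with a median log2 fold change of -0.16. Stat2, the ISGF3 subunit that recruits IRF9, was at 241, 211 and 170 CPM in controls and 94.7, 153 and 158 CPM in PTEC DN RAR. The groups did not overlap (log2 fold change -0.61 ± 0.20, SE; adjusted p = 0.0377, edgeR). Its call was lost without Cre- control replicate 1, Cre- control replicate 2 or PTEC DN RAR replicate 1 (adjusted p = 0.101, 0.0678 and 0.0695). Jak1 and Jak2, the receptor kinases, each fell by 0.27 (adjusted p = 0.0405 and 0.0424, edgeR), calls that leaving out Cre- control replicate 2 or 3 or any 1 PTEC DN RAR library ended for both. The count of 3 fell to 0 without Cre- control replicate 2 or PTEC DN RAR replicate 1, to 1 without Cre- control replicate 3, PTEC DN RAR replicate 2 or PTEC DN RAR replicate 3, to 1 with at least 10 counts in every library or with the replicate number as a block, and to 0 under pan-leukocyte scaling.

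Of the 24 interferon-stimulated genes listed as ISGF3 targets, 12 fell and 0 rose (17.1% and 23.6% of all genes), with a median log2 fold change of -0.73. Isg15, a ubiquitin-like modifier, was at 129, 85.4 and 72.8 CPM in controls and 26.8, 41.7 and 58.8 CPM in PTEC DN RAR. Every PTEC DN RAR library lay below every control, and the log2 fold change was -1.18 ± 0.29 (SE; adjusted p = 0.0127, edgeR). Oasl2 fell by 1.18 and Rtp4 by 1.13 on the log2 scale (adjusted p = 0.0158 and 0.00372, edgeR). The number called lower was 6 without Cre- control replicate 1 or Cre- control replicate 2, 7 without PTEC DN RAR replicate 1, 8 without PTEC DN RAR replicate 2 and 18 without PTEC DN RAR replicate 3, and it was 3 under pan-leukocyte scaling, where the median was -0.48.

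**Figure D4:**
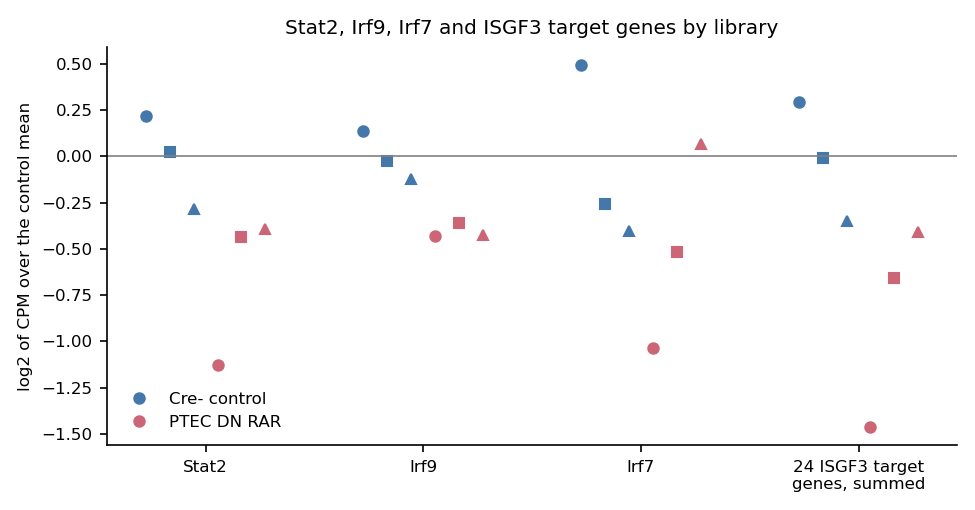
The y axis gives the log2 of the CPM in each library over the mean of the controls, for the ISGF3 subunit genes Stat2 and Irf9, for Irf7, and for the summed CPM of 24 ISGF3 target genes (circle, square and triangle for replicates 1, 2 and 3). Irf9 is nearly level in PTEC DN RAR, between -0.43 and -0.36, while the target sum spreads from -1.46 to -0.41 and Irf7 from -1.03 to 0.07.

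The summed level of those 24 genes was 3129, 2541 and 2004 CPM in the controls and 928, 1622 and 1923 CPM in PTEC DN RAR. The sum did not overlap between the genotypes but spread widely within each, and the highest PTEC DN RAR library came close to the lowest control. Across the 6 libraries the highest value was 3.37 times the lowest for the sum, 2.88 for Irf7, 2.54 for Stat2 and 1.48 for Irf9. PTEC DN RAR replicate 1 was the lowest library for all 4, though for Irf9 it was nearly level with PTEC DN RAR replicate 3.

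Of 23 IRF1 and interferon-gamma target genes, 4 fell (17.1% of all genes were called lower) and 3 rose (23.6% of all genes were called higher), and 16 did not pass, with a median log2 fold change of -0.24. Gbp7, a guanylate-binding protein gene, was at 86.5, 87.3 and 95.3 CPM in controls and 29.0, 46.2 and 51.9 CPM in PTEC DN RAR, a log2 fold change of -1.08 ± 0.19 (SE; adjusted p = 0.00288, edgeR). Irgm2 and Irgm1, which encode interferon-inducible GTPases, fell by 0.88 and 0.79. By contrast Ciita, the master regulator of MHC class II genes, was at 184, 228 and 181 CPM in controls and 358, 361 and 290 CPM in PTEC DN RAR, with no overlap and a log2 fold change of 0.77 ± 0.13 (SE; adjusted p = 0.00230, edgeR). Cxcl9, a chemokine gene, rose by 0.88 and Nos2, which encodes inducible nitric oxide synthase, rose by 1.34, the latter from only 0.89 ± 0.20 to 2.24 ± 0.70 CPM (SD, n = 3 each), and without its call when Cre- control replicate 3 was left out (adjusted p = 0.0534). The lower count was 9 without PTEC DN RAR replicate 3, 7 with no filter and 2 under pan-leukocyte scaling, where the median of the list was 0.001.

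Of the 5 cytokine genes linked to IRF5, 4 passed the filter and 2 of these fell, beside 17.1% of all genes. Tnf was at 29.1, 35.9 and 27.1 CPM in controls and 24.1, 21.2 and 25.8 CPM in PTEC DN RAR (log2 fold change -0.37 ± 0.13, SE; adjusted p = 0.0481, edgeR). Il6 was low, at 1.97, 2.72 and 1.01 CPM against 0.69, 1.04 and 0.76 CPM (log2 fold change -1.19 ± 0.38, SE; adjusted p = 0.0343, edgeR). Il12b and Il23a had log2 fold changes of 1.25 and -0.69 (adjusted p = 0.0661 and 0.302, edgeR), and Il12a gave 14 reads in all. Neither Tnf nor Il6 was called by limma-voom, under pan-leukocyte scaling, or without Cre- control replicate 1, Cre- control replicate 2 or PTEC DN RAR replicate 1, and the calls were also lost without PTEC DN RAR replicate 2 (Tnf) or PTEC DN RAR replicate 3 (Il6). With library size only, with the replicate number as a block, or with at least 10 counts in every library, 1 gene of the list was called lower. Il12b was called higher under pan-leukocyte scaling (adjusted p = 0.0370) and without PTEC DN RAR replicate 1 (0.0230), where Il23a was called lower (0.0324).

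Of 5 alternative activation genes linked to IRF4, 3 fell and 1 rose (17.1% and 23.6% of all genes), while Irf4 itself differed by -0.09 on the log2 scale. Chil3, which encodes a chitinase-like protein, was at 226, 248 and 207 CPM in controls and 91.5, 78.3 and 155 CPM in PTEC DN RAR, with no overlap (adjusted p = 0.00689, edgeR). Its level fell by 1.07 on the log2 scale, that of Mrc1, the mannose receptor, by 0.71 and Kdm6b, a histone demethylase gene, by 0.30, of which Kdm6b lost its call without Cre- control replicate 1 or 3 or PTEC DN RAR replicate 1 or 2. Pdcd1lg2, which encodes the checkpoint ligand PD-L2, rose by 0.83 from 1.26 ± 0.21 to 2.26 ± 0.41 CPM (SD, n = 3 each), and lost its call without any one of 4 libraries (Cre- control replicates 2 and 3, PTEC DN RAR replicates 1 and 2). Retnla, at 0.88 ± 0.65 and 1.77 ± 1.67 CPM (SD, n = 3 each), did not pass.

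**Figure D5:**
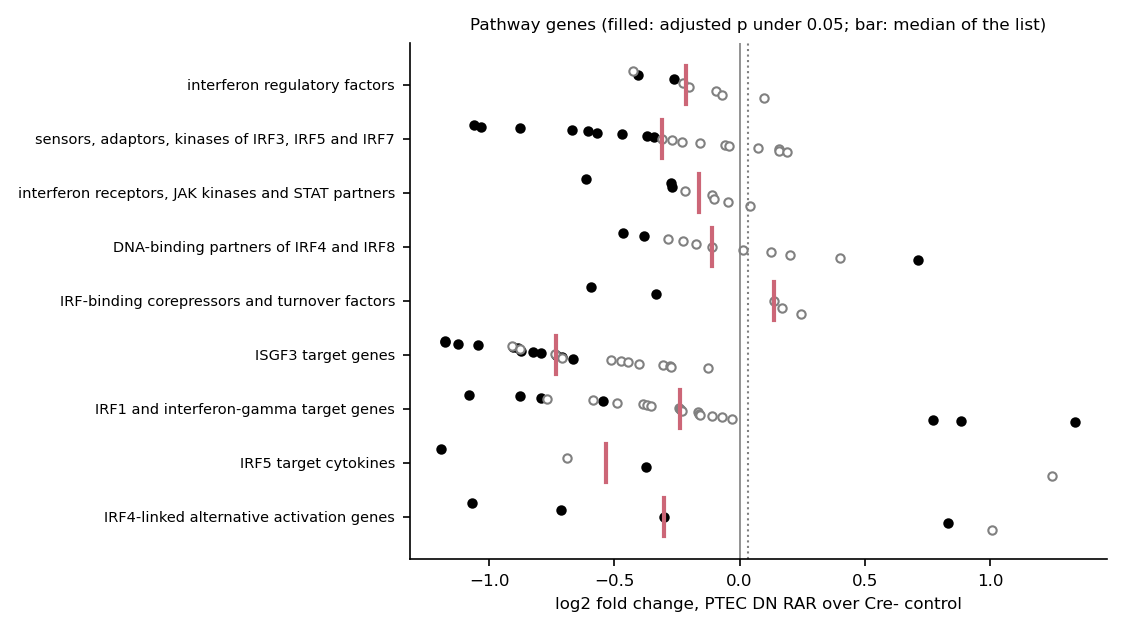
Each point is a gene of the list named on the y axis and the x axis gives its log2 fold change in PTEC DN RAR over Cre- control. Filled points have an adjusted p under 0.05 by edgeR, bars are list medians, and the dotted line is the median of all genes tested, 0.04. The ISGF3 target genes have the lowest median, -0.73.

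Of 11 DNA-binding partners of IRF4 and IRF8, 2 were called lower and 1 higher, beside 17.1% and 23.6% of all genes. Junb and Jun, subunits of AP-1, fell by 0.47 and 0.38 (adjusted p = 0.0470 and 0.0278, edgeR). Batf3, the partner of IRF8 in type 1 dendritic cells, rose from 9.83 ± 1.25 to 16.1 ± 2.99 CPM (SD, n = 3 each; log2 fold change 0.71, adjusted p = 0.0107, edgeR). No other partner passed, although 2 were called higher without Cre- control replicate 1 or under pan-leukocyte scaling, and 3 were called lower without Cre- control replicate 2. The call of Batf3 was lost without Cre- control replicate 3 (adjusted p = 0.0572), and the 2 lower calls became 0 without Cre- control replicate 1 or PTEC DN RAR replicate 1, 1 without Cre- control replicate 3 or PTEC DN RAR replicate 2, 1 with at least 10 counts in every library, and 0 under pan-leukocyte scaling.

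Of the 5 corepressor and turnover genes, 2 fell and 0 rose (17.1% and 23.6% of all genes). Trim21, which encodes a ubiquitin ligase of IRF proteins, was at 31.7, 30.7 and 30.2 CPM in controls and 18.1, 21.9 and 21.4 CPM in PTEC DN RAR (log2 fold change -0.59 ± 0.10, SE; adjusted p = 0.00303, edgeR). Irf2bp2, whose product binds IRF2 as a corepressor, fell by 0.33 (adjusted p = 0.0213, edgeR), in the same direction as Irf2. Irf2bp1, Irf2bpl and Rbck1 did not pass, with log2 fold changes from 0.14 to 0.25. Without PTEC DN RAR replicate 1 or PTEC DN RAR replicate 2 the call of Irf2bp2 was lost, and without the latter Irf2bpl was called higher (adjusted p = 0.0486). Under pan-leukocyte scaling 0 of the 5 were lower and 3 higher, beside 720 and 5110 of the 15440 genes tested.

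Likeness of pattern was measured as Pearson's r of log2 CPM over the 6 libraries against 99 genes of the pathway lists, and is given as a description since the libraries share genotype. For each member the gene with the highest of the 99 values is named, and this choice favors a high r. After the genotype means were taken out, r for the same pairs ran from 0.786 for Irf4 to 0.980 for Irf3. Irf1 was most like Cxcl10 (r = 0.985), an interferon-induced chemokine gene at 96.4, 126 and 77.2 CPM in controls and 42.4, 45.1 and 88.1 CPM in PTEC DN RAR. PTEC DN RAR replicate 3 was the highest of that genotype for both genes. Irf2 and Irf9 were both most like Irak1 (r = 0.986 and 0.963), a kinase gene of Toll-like receptor signaling. Irf5 was most like Tmem173 (r = 0.982), which encodes STING, Irf3 like Tcf3 (r = 0.984) and Irf7 like Isg20 (r = 0.959), one of the ISGF3 targets. Irf8 and Irf4 had no gene as close, with Chil3 (r = 0.842) and Il23a (r = 0.793). Without the 2 libraries farthest from the gene's median, r went to 0.685 for Irf7, 0.689 for Irf8 and 0.654 for Irf4, and stayed between 0.852 and 0.992 for the other members.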

How the data were processed

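RNA-Seq counts came from CD11B+ kidney cells of 6 mice, with 1 library per sample. The authors deposited whole-number read counts per Ensembl gene, not normalized. The submitters' processing notes name STAR 2.5.0a, HTSeq 0.6.1, edgeR, limma and GRCm38. HTSeq leaves out reads aligned to several places, which made up 42.93% to 47.75% of all entries per library, so genes with close copies are undercounted. The table had 46612 gene lines. Of these, 9 repeats with equal counts were collapsed.

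Samples were grouped by labelled genotype. After filterByExpr and TMM, the edgeR quasi-likelihood test (version 4.0.16, R 4.3.3) compared the genotypes. Adjusted p-values (Benjamini-Hochberg) run over 15440 genes, with a threshold of 0.05. P-values measure the spread between 3 samples per genotype. Positions are from GENCODE M21 (GRCm38) and promoters from RefSeq (GRCm38.p6). On simulated counts edgeR called 137 of 200 genes changed 2-fold and 13 unchanged genes (8.7% of the calls), of 15216 tested. In the data 40.6% of genes were called, and every IRF log2 fold change of the main fit was below 1 in size. The simulated shares therefore do not carry over to the IRF genes. Alternatives used DESeq2 1.42.0, limma 3.58.1 (voom), other scalings and filters, covariates and leaving out each library.

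The members and the gene lists were chosen with earlier results of these data known. Named genes are the 8 members, from each pathway list up to 3 called genes at either end by fold change, every gene of pathway lists of 6 or fewer, the pathway gene most like each member, and Itgam and Rara. The 3 dendritic cell markers, the B and T cell markers and Ifnb1 were named outside this rule, as were Rnf31 and Tnpo3, which overlap members. Some genes of the lists are not reported here and were left out of the counts.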

Additional observations from a re-analysis of the deposited data

How the results depend on the processing

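Of 120 values of the 8 IRF genes under the other settings, 100 kept direction and side of the threshold, 9 lost a call, 4 gained one and 7 turned sign. Where a value moved, the cause was not tested. Under pan-leukocyte scaling 720 genes were called lower, 0 IRF genes lower and 1 higher (Irf3, 0.32), with Irf1 at 0.036, Irf4 at 0.13, Irf8 at 0.16, Irf2 at -0.035 and Irf9 at -0.18. With the mean log2 CPM of the proximal tubule markers as a covariate, which cannot be told apart from genotype here, 1 gene was called lower and 0 higher of all genes (807 at an unadjusted p under 0.05), 0 IRF genes were lower, Irf1 was at 0.13, Irf4 at 0.48, Irf8 at 0.14, Irf2 at -0.31, Irf7 at -1.31 and Irf9 at -0.47. With at least 10 counts in every library 1 IRF gene was lower, and Irf2 was at -0.24. Irf5 was at -0.26 by DESeq2 and by RLE size factors.

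Leaving out 1 library gave 1 to 2 IRF genes called lower and 0 higher. The log2 fold changes ranged from -0.33 to -0.16 for Irf1, -0.35 to -0.24 for Irf2, -0.0025 to 0.15 for Irf3, -0.20 to -0.02 for Irf4, -0.31 to -0.16 for Irf5, -0.79 to -0.10 for Irf7, -0.14 to -0.03 for Irf8 and -0.51 to -0.34 for Irf9. Leaving out 1 library moved Retnla between -0.12 and 1.69.

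Same-numbered libraries correlated at -0.015, 0.211 and 0.029, so the numbers do not pair the mice. With the replicate number as a block Irf9 was at -0.40 and Irf2 at -0.26, both still called, the log2 fold changes of the other IRF genes gave no new call, and 2606 genes were lower and 3612 higher. The block left 7 ISGF3 targets, 1 of the receptors, JAK kinases and STAT partners, 1 DNA-binding partner and 1 IRF5-linked cytokine gene lower. The list counts and named pathway genes under other settings were added after the data were seen.

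With 3 mice a side the 95% interval of Irf7, -1.11 to 0.26, is the widest of the members. Lack of a call does not show that a gene was unchanged, and differences within its interval remain possible. CPM are relative to each library's total.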
